A study of Mus musculus with 74 samples.

Results

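Gm8898 is a KRAB zinc finger protein (KRAB-ZFP) whose gene lies on the minus strand of chromosome 2 (mm9 chr2:175918013-175930232, protein coding in gencode vM1), in a cluster of related KRAB-ZFP genes. Its binding sites were mapped by chromatin immunoprecipitation followed by sequencing (ChIP-seq) in B6 embryonic stem (ES) cells. The deposited peak table held 53255 rows, and the 1517 rows that carry the name Gm8898 were taken as its peaks. They were set against the 7605 rows of the 8 other KRAB-ZFPs assayed in the same cells, which were Gm14295, Gm14399, Gm14401, Gm14419, Gm14420, Gm14443, Gm4631 and Zfp931. In all 9 ES samples a KRAB-ZFP with a C-terminal 3XHA tag was expressed from an integrated vector, cells resistant to puromycin were pooled, and chromatin was precipitated with the HA antibody clone 16B12. The labels name no deletion in these cells, so the peaks describe an overexpressed, tagged protein added to whatever KRAB-ZFPs the cells make. The labels name the input TI_399_Input as control of Gm8898 and of 5 others, and TI_443_Input for Gm14295, Gm14443 and Zfp931. Peaks of all 9 were called against input alone at a p threshold of 1e-05. Each protein had 1 sample, so no value has a replicate error, and the intervals given with shares are 95% Wilson intervals that cover counting error only. The table holds no expression, so the labelled cell type could not be checked against markers.

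KRAB-ZFPs recognise DNA through an array of C2H2 zinc fingers, each of which contacts a few neighbouring bases, and recruit the corepressor KAP1 (Trim28) through the KRAB domain. KAP1 in turn brings in the histone methyltransferase SETDB1, which deposits H3K9me3, and in ES cells this pathway keeps many endogenous retroviruses silent. Intracisternal A-particle (IAP) elements are endogenous retroviruses of the mouse that still insert into new places. A full copy carries a gag and a pol gene between 2 long terminal repeats (LTRs). The annotated Gm8898 protein has 485 residues and 11 zinc fingers by the strict C2H2 pattern, against 5 to 25 fingers in the 8 other ES proteins.

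The sequence behind most Gm8898 peaks is shown first. Gm8898 peaks were ranked by how widely their 24-base words recur in other Gm8898 peaks, and the first one flanked by suitable repeats lay between 2 direct repeats of 337 bp with 99.7% identity. This copy spans 7140 bp on the minus strand of chrX:115520125-115527264 (mm9) and overlaps no annotated gene, with the coding gene Tgif2lx2 as its nearest. A 30-base oligo that the study designed for an IAP LTR is found in both repeats without a mismatch, starting at positions 111 and 6914, so the copy is called an IAP provirus here and positions are counted from its 5′ end. An open frame from 469 to 2358 holds a pair of CCHC zinc knuckle patterns, the mark of a retroviral gag protein, at 2035 and 2113. A second frame from 3101 to 5782 holds the YXDD pattern of reverse transcriptases, the mark of pol. The stretch of this provirus around the Gm8898 summits, positions 1894 to 2034, lies at chrX:115525231-115525371 and is printed in the direction of the provirus with the 21-base Gm8898 site (positions 1954 to 1974) in capitals.

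provirus, positions 1894 to 2034: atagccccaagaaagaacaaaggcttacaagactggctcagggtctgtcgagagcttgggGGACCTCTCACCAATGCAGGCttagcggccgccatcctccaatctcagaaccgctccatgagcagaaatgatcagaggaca

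The 8 most frequent forms of that site in the genome are shown because the share of copies with a Gm8898 peak differed between them. Form 1 is the most frequent, and capitals in the others mark the bases that differ from it.
form 1: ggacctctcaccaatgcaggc
form 2: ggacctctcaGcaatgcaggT
form 3: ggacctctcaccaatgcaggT
form 4: ggacctctcaGcaatgcaggc
form 5: ggaccCctcaGcaatgcaggT
form 6: ggaActctcaAcaatgcaggc
form 7: ggacctctTaccaatgcaggc
form 8: ggacctctcacTaatgcaggA

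Outside the provirus, the same kind of site was found in peaks whose sequence occurs once in the genome. Of such peaks with a score over 100 on chromosomes that were not used to learn the motif, 4 are shown with the 18-base match in capitals. At the place labelled Snhg12 the gene Snora61 overlaps too, and which of them the exon belongs to was not determined.
chr4:131866228-131866257 (+), in an exon of Snhg12: agctggCCTCACAGCGATGCAGTCtgctgt
chr10:119638401-119638430 (+), in a coding exon of Irak3: gcgggcCATCGCAGCTGTCCAGGAtcccgc
chr10:68769253-68769282 (+), 14719 bp from Rhobtb1: aagaggCCTCACAGCAATGCAGCAtggagc
chr8:87210498-87210527 (-), in an intron of Nacc1: atgagcCCTCACAGCGTTGCAATAcgccct

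The number of peaks did not set Gm8898 apart from the other ES samples. Its 1517 peaks were fewer than those of Gm14419 with 3906 and Gm14401 with 1541, while the remaining 6 samples had 256 to 480 (exact two-sided permutation test over the 9 samples, p = 1). The test compares 1 sample with 8 and cannot give a p below 0.111. The deposited fold enrichment of Gm8898 peaks had a median of 11.6 (quartiles 9.40 and 14.96), beside medians of 9.63 to 24.4 in the others (exact permutation p = 0.889). MACS scores a peak by its p-value, as -10 log10 p, and the median score was 87.5, beside 54.8 to 66.3 in 7 samples and 260 in Gm14419. A Gm8898 peak held a median of 22 tags over a called width of 458 bp. Thus these were peaks of moderate height, higher in score than those of 7 ES samples and lower than those of Gm14419.

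The deposited false discovery rate was at most 5% in 1345 Gm8898 peaks (88.7%, interval 87.0 to 90.2), beside 99.7% in Gm14419 and 40.2% in Gm14443. It was at most 5% in 1 peak each of Gm14401 and Gm14420 and in no peak of Gm14295, Gm14399, Gm4631 and Zfp931. This rate is estimated by calling peaks with ChIP and input swapped. It did not fall with the score. The 931 peaks with a score of at most 100 had rates between 2.03% and 4.45%, and the 42 peaks with a score over 200 had rates between 7.14% and 100%. A filter on this rate therefore removes the highest Gm8898 peaks, and the descriptions below keep every deposited peak.

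**Figure D1:**
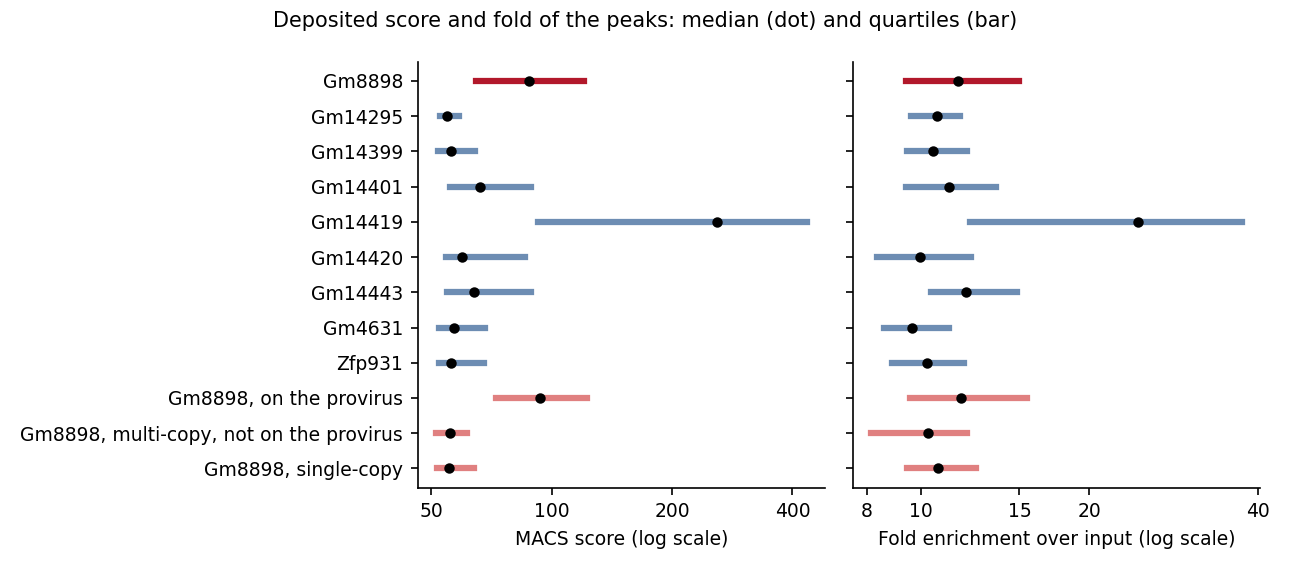
Deposited MACS score (left) and fold enrichment over input (right) on log axes for the 9 ES samples and for 3 classes of Gm8898 peaks, with a dot at the median and a bar from the first to the third quartile. Gm8898 peaks on the provirus had a median score of 93.3, and its single-copy peaks one of 55.4.

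Gm8898 peaks lay almost entirely in repeated sequence. The median copy number of the 24-base words in the 200 bp window was at least 2 in 1373 of 1517 peaks (90.5%, interval 88.9 to 91.9). In the 8 other ES samples the share ranged from 38.9% in Gm14420 to 75.3% in Gm14419. Gm8898 had the highest share of the 9, which gives the smallest p this comparison allows (exact two-sided permutation test, p = 0.111). Among peaks with a score over 100 it was 97.6%, and another ES sample reached 100% (exact permutation p = 0.444). The smallest of the other samples kept only 3 peaks at this score. Of regularly spaced 200 bp windows of the genome, 18.9% met the same criterion. In 1307 Gm8898 peaks the median copy number was at least 100. The single-copy peaks numbered 144.

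Nearly all of this repeated sequence was one element. By shared 24-base words alone, 1305 of the 1517 Gm8898 windows joined into 1 group. When aligned to the provirus over at least 100 bp, 1310 windows matched (86.4%, interval 84.5 to 88.0), with a median identity of 96.0%. In the other ES samples the share on the provirus was 63.3% for Gm14419, 45.0% for Gm4631, 41.5% for Gm14443, 30.6% for Gm14401 and 27.6% for Gm14399. It was at most 3.13% for Gm14295, Gm14420 and Zfp931. The provirus was chosen from Gm8898 peaks, so this order is a description and was not tested. The windows lay on either strand, 621 on the plus and 689 on the minus strand. Gm8898 peaks on the provirus had a median score of 93.3 and 23 tags, against 55.4 and 10 tags in the 207 peaks elsewhere. In young repeats a read that fits several copies equally well was placed at 1 of them by a pseudo-random choice, so the height at a single copy is partly that of its near-identical relatives.

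Gm8898 occupied 1 narrow place on the provirus. Its 1310 summits had a median position of 1967 with quartiles of 1942 and 1988, and 1235 of them (94.3%) lay within 100 bp of the median. This is inside the gag frame, which held 1290 of the summits, and just upstream of the sequence for the zinc knuckles. No Gm8898 summit lay in an LTR. A minor set of 18 summits lay between positions 5900 and 6300, just past the end of the pol frame.

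**Figure D2:**
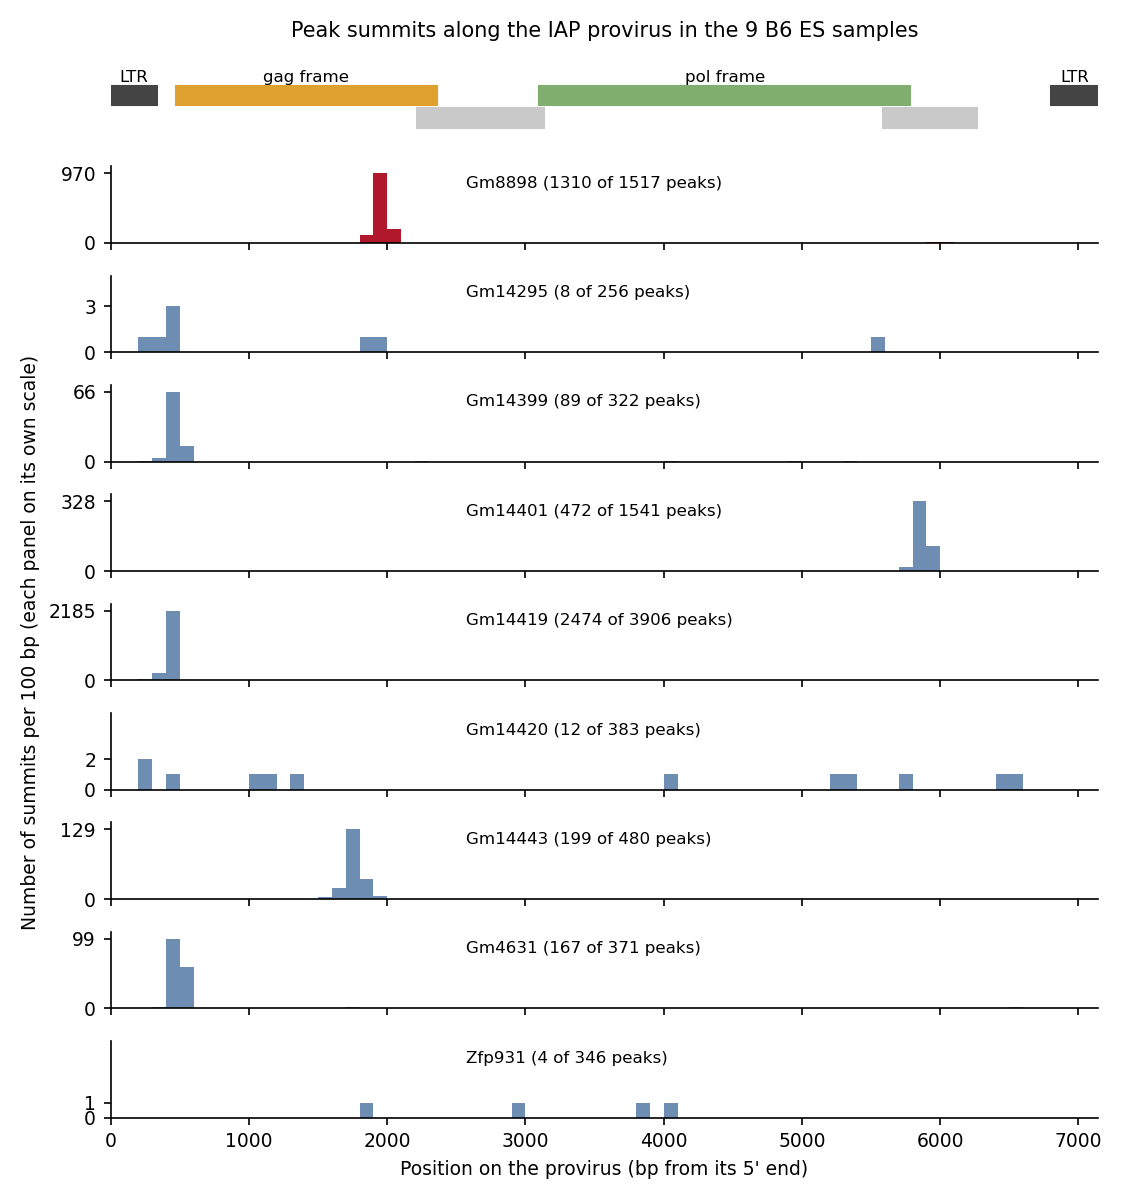
Number of peak summits per 100 bp along the provirus for each of the 9 ES samples, each panel on its own scale, below a map of the LTRs, the gag and pol frames and 2 further open frames in grey. Gm8898 summits stand at a median of 1967, Gm14443 at 1764, Gm14419 at 427, Gm4631 at 490, Gm14399 at 482 and Gm14401 at 5878.

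The other ES proteins with more than 12 peaks on the provirus had their summits at other places. The median summit was at 427 in Gm14419 (2474 peaks), 482 in Gm14399 (89 peaks) and 490 in Gm4631 (167 peaks), around the start of the gag frame. Gm14401 (472 peaks) had its median at 5878, with quartiles of 5854.5 and 5900.5, and Gm14443 (199 peaks) at 1764. Gm14443 was the nearest neighbour of Gm8898, yet its quartiles, 1730 and 1794, did not overlap those of Gm8898. Within 100 bp of the Gm8898 median, Gm14443 had 10 summits, Gm14295 had 1 and the other 6 ES samples had 0.

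The place of the summits coincided with a sequence motif learned on single-copy peaks. An 18-base motif was fitted to the 76 single-copy Gm8898 peaks of the odd-numbered chromosomes, none of which aligned to the provirus or held its site. With bases of a frequency of at least 0.6 spelled out, it reads CNTCNCAGCNCTNCAGNN on the strand of the provirus. Scanned along both strands of the 7140 bp provirus, its best match began at position 1957, with a score of 15.6 bits, and ended 18 bases later. The next best match, at 1578, scored 15.1 bits, and no Gm8898 summit lay within 100 bp of it. A second motif fitted to the 68 single-copy peaks of the remaining chromosomes, a separate set of peaks, reads GGGCCTCNCAGCNNTGCA. Its best match began at 1954 with 18.3 bits, and its next best match, at 1681, scored 11.3 bits. One of these 68 lay on the provirus, and without it the best match again began at 1954, with 15.58 bits against 11.58 at 1681. The centre of the first match lay 1.5 bp upstream of the median summit.

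**Figure D3:**
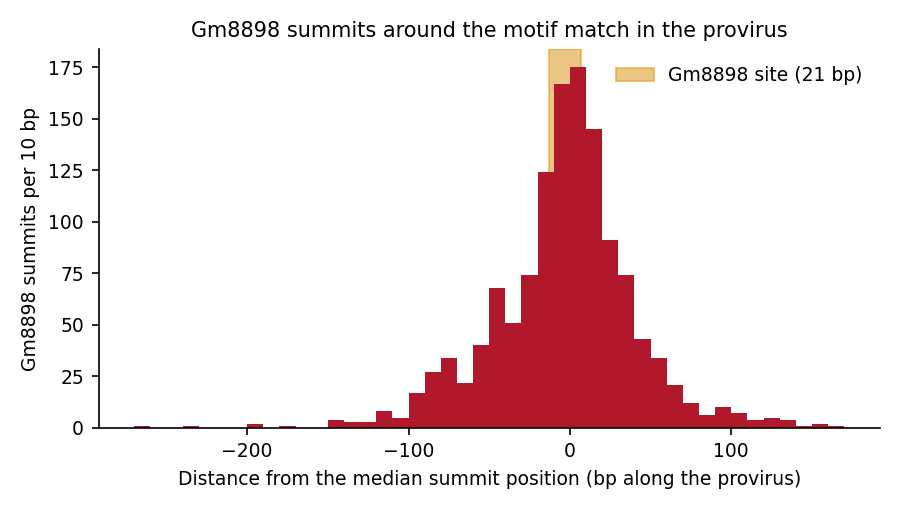
Number of Gm8898 summits per 10 bp within 300 bp of their median position on the provirus, with the 21-base site shaded. The summits peak at the site, and 1012 of the 1310 lie within 50 bp of the median.

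Peaks of chromosomes that had not been used to learn the motif were then scanned. A match was a score of at least 14.1 bits, the 99th percentile of best scores in windows flanking the learning peaks. It was present in 627 of 773 Gm8898 peaks (81.1%, interval 78.2 to 83.7). Among the 672 on the provirus 611 matched (90.9%), but these share their sequence and amount to one site seen many times. Of the 68 single-copy peaks 1 lay on the provirus, with form 1 of the site. Of these 68, 14 matched (20.6%, interval 12.7 to 31.6), and without that peak 13 of 67 (19.4%, interval 11.7 to 30.4), against 5 of 680 windows flanking the same peaks (0.735%, interval 0.314 to 1.71). In the other ES samples the share over all peaks was between 0% and 0.766% in 7 of them and 4.66% in Gm14443. The motif was fitted to Gm8898 peaks, so the first rank of Gm8898 is a description. Of regularly spaced windows of the genome 0.609% matched. The share was larger among high peaks, with 5 of 9 single-copy peaks of a score over 100 and 9 of 59 of a lower score. In the 14 single-copy peaks the match lay between 57 bp on one side and 32 bp on the other side of the summit, and in 13 of them within 50 bp.

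**Figure D4:**
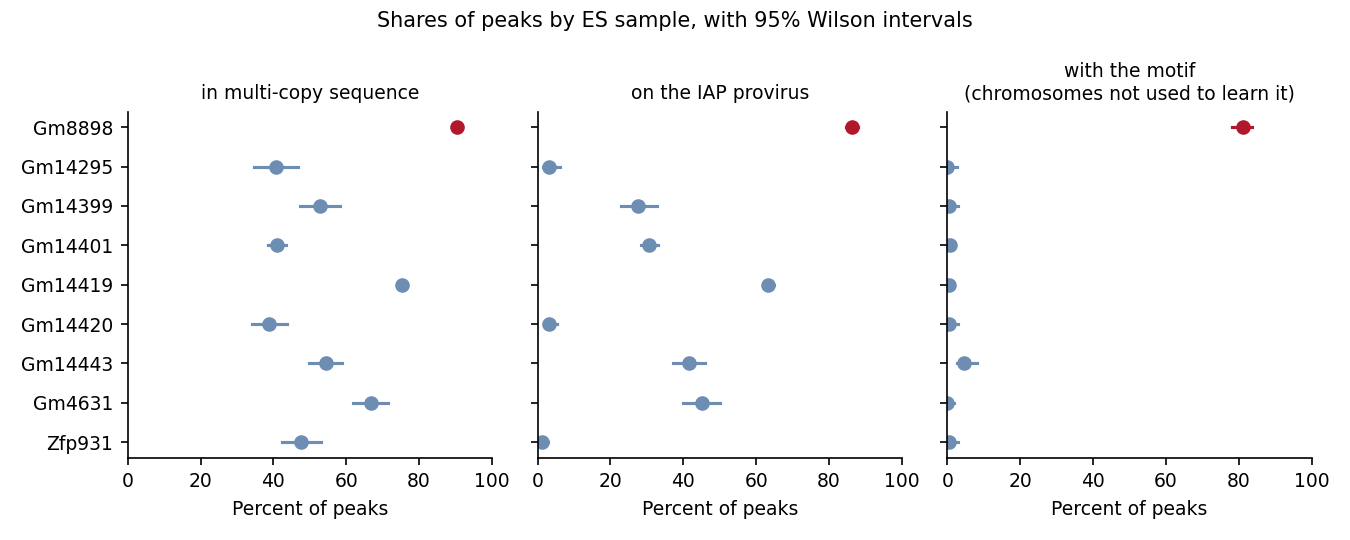
Percent of peaks in multi-copy sequence (left), aligned to the IAP provirus (middle) and with the motif on chromosomes not used to learn it (right) in the 9 ES samples, with 95% Wilson intervals that cover counting error only. The values for Gm8898, 90.5%, 86.4% and 81.1%, are the highest in each panel.

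The genome holds many more copies of the site than the provirus shown, and most carried a peak. A search of mm9 with positions 1868 to 2067 gave 1624 copies that aligned over at least 150 bp and included the site. A Gm8898 summit lay within 100 bp of the site in 1243 of them (76.5%, interval 74.4 to 78.5). Of the copies with an LTR on both sides 1178 of 1516 had a summit (77.7%), while of the 24 copies with no LTR found 4 had one (16.7%). By chromosome the share ranged between 68.2% on chromosome 19 and 83.6% on chromosome 11 among chromosomes with more than 3 copies. On the X chromosome it was 91 of 124 copies (73.4%).

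Copies with and without a peak differed in the bases of the site. Form 1 was present in 970 copies, of which 725 had a Gm8898 summit (74.7%, interval 71.9 to 77.4). Form 2, which differs from form 1 by C11G and C21T, was present in 467 copies, of which 431 had a summit (92.3%, interval 89.5 to 94.4). Positions are counted from 1 at the 5′ end of the 21-base site, and in C11G form 1 has the C. Form 3, with C21T alone, had 24 of 33 (72.7%) and form 4, with C11G alone, 25 of 28 (89.3%). Hence, among forms 1 to 4, the higher share went with G at position 11. Form 5 also has G at this position and is described below. With G there, forms 2 and 4 combined, 456 of 495 copies had a summit (92.1%, interval 89.4 to 94.2), and with C, forms 1 and 3, 749 of 1003 (74.7%, interval 71.9 to 77.3). The peaks themselves were also higher with G, with a median score of 110 and 26 tags, against 86.1 and 21 tags with C. The motif of the single-copy peaks has G at this position with a frequency of 0.658 and C with 0.140, and it was learned on other sequences.

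**Figure D5:**
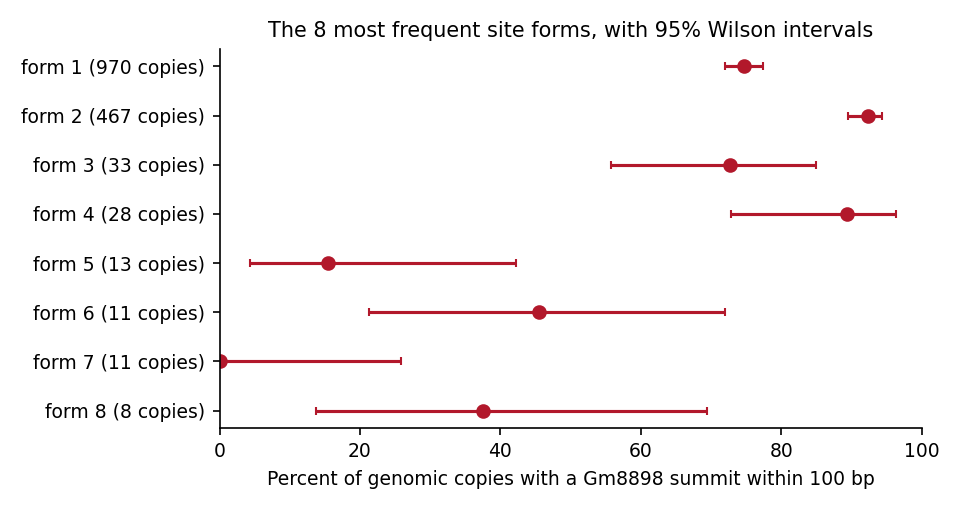
Percent of genomic copies with a Gm8898 summit within 100 bp for the 8 most frequent forms of the site, with 95% Wilson intervals that cover counting error only. Forms 2 and 4, with C11G, stand at 92.3% and 89.3%, forms 1 and 3 at 74.7% and 72.7%, and form 7 at 0%.

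The copies with C and with G at position 11 also differed outside the site, with a median identity to the window shown of 98.5% and 95.5%. Each 24-base word of a copy was shared by a median of 922 copies with C and of 506 with G. Reads of more repeated words are spread over more copies. Where words were shared by 300 to under 500 copies, 111 of 134 copies with C (82.8%, interval 75.6 to 88.3) and 162 of 172 with G (94.2%, interval 89.6 to 96.8) had a summit. Where they were shared by 500 or more, the shares were 77.1% of 608 (interval 73.6 to 80.3) and 91.2% of 318 (interval 87.6 to 93.8). Within these ranges the medians still differed, with 307 for C and 489 for G in the first and 922 and 511 in the second, so the ranges do not match copy number. From 100 to under 300 it was 146 of 218 with C and 2 of 3 with G. The part of read placement or of identity in the difference was not tested.

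Rare changes in the site went with fewer peaks. Form 7, which differs from form 1 by C9T, had 0 of 11 copies with a summit (interval 0 to 25.9), and of all 13 copies that differ at position 9 none had one. Form 5, with T6C added to the changes of form 2, had 2 of 13 (15.4%, interval 4.33 to 42.2). None of 15 copies that differ at position 18 and none of 10 that differ at position 15 had a summit, and at position 3 it was 1 of 16. At position 16, by contrast, 7 of 8 differing copies had a summit. Most copies that differ at position 3, 15 or 18 also differed elsewhere. Position 18 was the only difference in 2 copies, position 3 in 1 and position 15 in 0. A form with 5 copies and 0 summits differs at positions 3, 15 and 18. The counts at these positions thus overlap, and no copy isolates position 15. In the motif, whose bases 1 to 18 correspond to positions 4 to 21 of the site, position 9 carries 1.51 bits of information and position 15 carries 1.43, the 2 highest values, while position 16 carries 0.451. Over all forms, 1 of 31 copies with a motif score under 10 bits had a summit (3.23%), 764 of 1046 between 14 and 16 bits (73.0%) and 459 of 500 between 17 and 19 bits (91.8%). The motif score did not separate all forms. Form 5 scores 15.48 bits and form 1 15.59 bits, with a summit at 2 of 13 and 725 of 970 copies. Copies of low identity had few peaks. The 42 copies under 90% identity to the window shown had 6 summits (14.3%), all of them at the 14 that kept form 1.

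Most Gm8898 peaks lay away from genes. Of the 1517 summits, 1153 were intergenic (76.01%) and 350 intronic (23.1%), against 60.2% and 36.5% of the genome. Of the 7605 summits of the other ES samples 65.4% were intergenic. The excess held for the multi-copy Gm8898 peaks, with 78.8% intergenic, and not for the 144 single-copy ones. Of these 144, 49.3% were intergenic (interval 41.3 to 57.4) and 43.1% intronic. Coding exons held 5.56% of them (interval 2.84 to 10.6), beside 1.35% of the genome. Only 10 summits lay in coding exons, 8 of them single-copy. Near transcript starts, 21 summits lay within 1 kb (1.38%, interval 0.907 to 2.11), the lowest of the 9 ES samples, which otherwise ranged from 3.91% to 12.8% (exact two-sided permutation test, p = 0.222). Among peaks with a fold over 10 it was 1.44%, and the lowest of the others was 1.18%. Of regularly spaced genome positions 4.26% lay as near. Summits inside a protein-coding gene numbered 322, in 305 genes. Of the 1243 copies of the site with a summit 224 lay in a gene, and of the 381 without one 57. Where a gene held the provirus copy, the copy mostly ran against the gene: 173 of 224 copies with a summit were antisense (77.2%, interval 71.3 to 82.2), and 43 of 57 copies without one (75.4%, interval 62.9 to 84.8). The orientation thus did not differ between copies with and without a peak beyond counting error. In all, 19 genes held 2 or more peaks. Gpc6, a glypican gene, and Gm15155 held 3 peaks each, and Alk, a receptor tyrosine kinase, Arfip1, encoding an arfaptin, and 2210408I21Rik held 2 each, every one of them on the provirus. These 5 genes were 478 to 1391 kb long. Ties at 2 peaks were broken by name, so Alk, Arfip1 and 2210408I21Rik are not otherwise set apart from the other genes with 2.

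The highest folds combined single-copy sites with proviruses. Of the 12 Gm8898 peaks with the highest fold among those with a score over 100, 8 lay on the provirus, with summits between positions 1947 and 2003. The highest of these lay at chr11:8985940-8986139, 16681 bp from Gm11992, with a fold of 40.99, a score of 319 and 46 tags. A 34.01-fold peak lay in an intron of Adarb2. The other 6 were intergenic and far from genes. Their nearest coding genes were Tmem168 (34.45-fold, 50995 bp away), Wdr11 (32.2-fold, 103001 bp), Htr1b (30.4-fold, 376527 bp), Ryr2 (30.7-fold, 751783 bp), Slit2 (34.9-fold, 1040614 bp) and Arrdc3 (31.4-fold, 1317962 bp). The other 4 were single-copy. The highest fold of the sample, 51.8, was in an intron of Smyd2, a lysine methyltransferase gene, at chr1:191732874-191733073, with a score of 578 and 63 tags. An intron of Rab12, a small GTPase gene, held a 38.8-fold peak of score 504 at chr17:66868166-66868365, 744 bp from the transcript start. Zbtb6, a BTB zinc finger gene, had a 37.6-fold peak of score 325 at chr2:37286601-37286800. Its summit lay 262 bp from an annotated transcript start inside the gene, whose 5′ end is annotated at 37298691. A 35.99-fold peak of score 265 lay at chr9:13978470-13978669, 102175 bp from the sestrin gene Sesn3. The deposited false discovery rates of these 4 were 100%, 100%, 40% and 15.4%.

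No other ES sample had a peak at these single-copy places. Within 150 bp of the windows of Smyd2, Rab12, Zbtb6 and Sesn3 the 8 other ES samples had no row, and the same held for every peak named in the next sentences apart from that at Gm10801. Of the 8 single-copy peaks of the highest score, 3 more are named here. The highest of them (score 152) lay in a non-coding exon where the snoRNA host gene Snhg12 and Snora61 overlap. Which of these genes the exon belongs to was not determined. The others lay 19449 bp from Rpn1, a subunit gene of oligosaccharyltransferase (score 136), and 4591 bp from Paip1, whose product binds the poly(A)-binding protein (score 131). On chromosomes not used to learn the motif, the site at Snhg12 matched it with 17.6 bits, while Zbtb6 and Rpn1, with 10.7 and 11.5 bits, did not reach the threshold.

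Peaks near coding transcript starts were few, and none was on the provirus. Within 1 kb of a protein-coding start there were 14 Gm8898 peaks. Beside Rab12 and Zbtb6, the highest scores were at Pibf1, encoding a centrosomal protein (score 357), and Kcns3, a potassium channel subunit gene (score 110). Next was a coding exon of Irak3, a negative regulator of Toll-like receptor signalling (score 106), 288 bp from the start of Tmbim4. The Pibf1 summit lay 64 bp from an annotated transcript start inside the gene, in sequence with a copy number of 3. The annotated Pibf1 gene begins at chr14:99498652 and the peak window at 99575602. Lower ones lay at Prex2, a Rac exchange factor gene (score 77.7), and Pja2, a ubiquitin ligase gene (score 63.0). The peak at Gm10801 was of another kind, with 1168 tags and a fold of 2.36. The same place had 1152 to 1201 tags and folds of 1.89 to 2.24 in the 4 other ES samples with a peak there, Gm14399, Gm14401, Gm14419 and Gm4631, which share its input label.

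In coding exons the highest scores were those of Pkd1l2, a polycystin-like gene (120), Irak3 (106), a place where Astn2 and Trim32 overlap (84.1), Klhl9, an adaptor of a ubiquitin ligase (82.4), Coil, which encodes the Cajal body protein coilin (79.4), and C85492 (66.9). Their folds were between 10.2 and 14.3, with 15 to 26 tags. On chromosomes not used to learn the motif, Irak3, Astn2 and Klhl9 held a match of 15.4, 17.6 and 15.2 bits, and Pkd1l2, with 13.1 bits, fell short of the threshold.

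Genes of pathways tied to ES cells and silencing had no Gm8898 peak nearby. Within 10 kb of the gene body a summit was found for 468 of 22380 protein-coding genes (2.09%). In 6 lists with 167 genes, of which 157 were in the annotation, it was found for 0 (Wilson interval 0 to 2.39%; 3 counts of the total would be 1.91%). The interval includes the 2.09% of all coding genes. The counts were 0 of 19 pluripotency genes, 0 of 23 genes of the KAP1 silencing machinery, 0 of 33 imprinted genes, 0 of 25 germline and piRNA genes, 0 of 16 neighbours of IAP copies reported as variably methylated, and 0 of 41 KRAB-ZFP genes of the chromosome 2 cluster that includes Gm8898 itself. With 50 kb, 12 of the 157 had a summit (7.64%), beside 6.47% of all protein-coding genes.

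Few Gm8898 windows coincided with those of samples that had another control. Of 61 such samples, 55 shared no window that overlapped by at least 25%, and 40 of the 1517 Gm8898 windows (2.64%) overlapped one of any sample. Of these, 34 overlapped Gm14443, which is 2.24% of the Gm8898 windows and 7.08% of the 480 of Gm14443. Of the 199 Gm14443 peaks on the element, 153 lay on a copy that also had a Gm8898 peak (76.9%), and these are 11.7% of the 1310 Gm8898 peaks on the element. Of all copies of the site, 76.5% had a Gm8898 summit. That share counts summits within 100 bp of the site, while peaks on the same copy were counted with a tolerance of 500 bp. The shares are thus not the same measure, and nothing particular about the pair is drawn from the 76.9%. The F9 sample Gm21082 had 83.4% of its peaks on the provirus, with a median summit at 131.5, inside the LTR. It shared 0 windows with Gm8898. By the same-copy count, 451 Gm8898 peaks on the element (34.4%) lay on a copy with a Gm21082 peak. In the other direction it was 483 of the 1845 Gm21082 peaks on the element (26.2%).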

How the data were processed

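Gm8898 ChIP-seq was done in B6 ES cells, 1 sample, with 8 other ES samples for comparison. As the labels and methods describe, the authors aligned the reads to mm9 with Bowtie (best alignment, ties placed pseudo-randomly), called peaks with MACS 1.4.2 against input and set each peak to 200 bp around its summit. The labels also list Bowtie2 and deepTools. The input named as control, TI_399_Input, matches no sample title (a sample is titled TI_339_Input). The authors deposited tag counts per peak, a score (10 times the negative log10 of the p-value), the fold enrichment as a ratio and the false discovery rate as a percent. Reads per library were not analysed here, so depth is unknown and a missing peak does not show absent binding. One table name, with 244 rows, matched no label and was not used.

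The reference was NCBIM37 (mm9) with gencode vM1. Copy number is the median genome count of the 24-mers of a window. Windows were aligned to the provirus, and the provirus window to mm9, with BLAST 2.17.0 (E-values 1e-05 and 1e-15). The provirus was the first candidate with direct repeats of at least 300 bp and 99% identity. The motif was fitted to 150 bp around single-copy summits by expectation maximisation in Python 3.11.15 (numpy 2.4.6), and its width and site-frequency cap were chosen after first fits were seen. Flanks were 10 windows a peak, 500 to 1700 bp away, and genome windows were taken every 100 kb. Single-copy peaks that aligned to the provirus or held its site were also left out of learning, as an alternative added after seeing the data. Scripts were tested on simulated data. Samples were compared by exact two-sided permutation over samples (scipy 1.17.1 for intervals), and peak sets called against the same input were not compared by overlap.

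Named peaks followed a rule: the 12 highest folds with a score over 100, the 8 highest scores within 1 kb of a coding start, the 6 in coding exons, the 8 among single-copy peaks, genes of 6 lists within 10 kb, and the 5 genes with most peaks inside, ties by name. One peak chosen by this rule is not reported here. The printed sites were picked with their values known. The members and lists were chosen with earlier results of these data known. Alternatives were other score, fold and rate thresholds, sample sets, copy numbers, distances, windows, learning chromosomes and overlaps.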

Additional observations from a re-analysis of the deposited data

How the results depend on the processing

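With peaks of a score over 100 in every ES sample the number of Gm8898 peaks fell from 1517 to 586, and with a fold over 20 added to 117, below the mean of the others (310), which Gm14419 dominates with 2264. Among all 67 KRAB-ZFP samples, most of them F9 EC samples called at other thresholds, the multi-copy share of 90.5% passed 0.05 (exact two-sided permutation p = 0.0448). Gm8898 was not the highest of the 67, as the F9 samples Gm14406 and Gm21082 had shares of 95.02% and 92.99%. The motif share of 81.1% ranked first there (exact permutation p = 0.0149, the smallest it can give), which a motif fitted to Gm8898 peaks favours, so it is no support. The motif share was 29.9% with a threshold 2 bits higher, which form 2 of the site passes with 17.03 bits and form 1, with 15.6, does not. The share was 82.9% with one 2 bits lower, 59.9% in 100 bp, 86.8% in 400 bp, 83.1% with the motif of the other chromosomes and 82.3% with that motif relearned without the learning peak on the provirus, an alternative chosen after seeing the data. In 400 bp windows Gm14443 reached 41.5%. Windows shared with samples of another control numbered 16 at 50% overlap and 81 at 1 bp, 3 with a score over 100, 12 with a fold over 10, 1 with a score over 100 and a fold over 20, and 10 with a false discovery rate of at most 5%, against 40. Listed genes with a summit numbered 12 within 50 kb and 0 within 1 kb or with a score over 100. The shares in multi-copy sequence, with the motif and near transcript starts and the median fold stayed on the same side of the others' mean under every alternative run, but ranks did not all hold. Another ES sample reached 100% in multi-copy sequence with a score over 100 (exact permutation p = 0.444), with a fold over 20 added (p = 0.667) and with a false discovery rate of at most 5% (p = 0.8). Others were lower near transcript starts with a fold over 10 (1.18%), and at 0% with a score over 100 and a fold over 20 and with the false discovery rate filter. The smallest of the other samples kept 3 peaks with a score over 100, and 1 with a fold over 20 added. With the false discovery rate filter the smallest kept 1 peak, and only 5 samples remained. Shares of 0% or 100% under these filters can thus rest on very few peaks. Leaving out a replicate was not possible with 1 sample per protein. No paired analysis was possible because each protein has 1 sample and the shared replicate number pairs nothing.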
